A study of Mus musculus with 56 samples.

Results

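Immediate early genes were followed around the clock in the mouse heart under 2 feeding schedules. The set comprised 9 genes chosen by name, Fos, Fosb, Jun, Junb, Egr1, Atf3, Ier2, Nr4a1 and Dusp1, out of 22864 genes with values, and each of the 9 symbols matched a single row. The libraries were polyA RNA-seq of hearts from adult C57BL/6J females, an inbred strain, aged 9 weeks, and no genetic change is named in any group. The mice were kept in groups with 12 h each of light and dark, and were fed for 7 days either by day (daytime-restricted feeding, DRF) or by night (nighttime-restricted feeding, NRF, the reference). Collection took place every 4 h at 7 zeitgeber times (ZT, the hours since the lights came on), ZT24 being the last, and each regimen has 4 libraries per ZT, in all 14 groups and 56 libraries. The labels number the libraries of a group 1 to 4 without saying what a number marks or whether each library is a separate mouse, so the p-values below measure the spread between libraries.

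Immediate early genes are transcribed within minutes of a stimulus, from transcription factors already present in the cell, and their transcripts decay fast. Fos, Fosb, Jun and Junb encode subunits of AP-1, a dimeric transcription factor. Atf3 encodes a stress-induced relative of these proteins, Egr1 a zinc finger transcription factor, Nr4a1 an orphan nuclear receptor and Ier2 a nuclear protein. Dusp1 encodes a phosphatase that switches off MAP kinases, the enzymes that relay many of the inducing signals. In heart, stretch, adrenergic signals, injury and tissue handling are all known to induce members of this class.

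Levels are given as TPM (reads per base of transcript, scaled to one sum per library), recomputed from the deposited values as described under the processing. The libraries held 29.3 to 52.9 M recovered reads, with a median of 37.3 M, and intervals based on reads would cover counting error only. Genes that mark cardiomyocytes were abundant in all libraries, the summed TPM of Myh6, Tnnt2, Actc1, Ryr2 and Tnni3 running from 16933 to 29033. Summed markers of atrial tissue ran from 95.1 to 5492 TPM and those of red cells from 1686 to 67420 TPM, so the libraries differed widely in these genes. In bulk tissue, fewer cells of a type and less RNA per cell cannot be told apart. The libraries that correlated least with their own group over all tested genes were DRF ZT4 replicate 2 (median r = 0.975), DRF ZT20 replicate 2 (0.978) and NRF ZT8 replicate 1 (0.983). Several calls changed without one of them, and the larger changes are given beside the results. The library protocol names no step that marks strand, and whether the counting used strand is not given in the sources used here, so reads of overlapping genes may not have been told apart. Exons of Junb share 173 of 2301 bases with Prdx2 on the other strand, which averaged 216 TPM, and exons of Jun share 232 of 3189 bases with the antisense gene Junos, at 0.479 TPM.

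On GRCm38, Fos lies on the plus strand at chr12:85473890-85477273, Nr4a1 on the plus strand at chr15:101254269-101274795, and Jun on the minus strand at chr4:95049034-95052222. Junb (chr8:84974484-84978718) and Ier2 (chr8:84661331-84662852) are both on the minus strand of 1 chromosome. Fosb (chr7:19302696-19310051), Atf3 (chr1:191170296-191218039) and Dusp1 (chr17:26505590-26562128) are on the minus strand. The values are counted over the exons of each gene, untranslated parts included. RefSeq gives a promoter window on build GRCm38.p6 for 7 of the members, those for Egr1 and Ier2 not being used here. The 250 bases before the start are shown for Fos, Nr4a1 and Dusp1, the members with the lowest adjusted p in the comparison of library numbers described further on. For Nr4a1 and Dusp1 the RefSeq start lies inside the span of the gene given above. Capitals mark the letters TGACG on either strand (CGTCA when read along the printed strand), the core of the cyclic AMP response element (CRE), and in Dusp1 they also cover the full element TGACGTCA.
Fos, upstream of the start, GRCm38.p6, chr12:85473640-85473889, plus strand: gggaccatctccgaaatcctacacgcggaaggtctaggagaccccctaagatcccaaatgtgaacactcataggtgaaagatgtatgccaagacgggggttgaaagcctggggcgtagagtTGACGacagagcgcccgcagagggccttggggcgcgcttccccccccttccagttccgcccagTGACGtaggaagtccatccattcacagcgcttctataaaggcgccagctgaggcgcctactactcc
Nr4a1, upstream of the start, GRCm38.p6, chr15:101266596-101266845, plus strand: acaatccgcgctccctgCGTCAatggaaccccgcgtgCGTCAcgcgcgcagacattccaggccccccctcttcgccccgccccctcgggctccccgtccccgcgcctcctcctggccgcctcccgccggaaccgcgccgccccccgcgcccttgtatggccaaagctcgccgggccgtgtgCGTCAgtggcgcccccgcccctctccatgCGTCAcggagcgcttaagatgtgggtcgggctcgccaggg
Dusp1, upstream of the start, GRCm38.p6, chr17:26508473-26508722, minus strand: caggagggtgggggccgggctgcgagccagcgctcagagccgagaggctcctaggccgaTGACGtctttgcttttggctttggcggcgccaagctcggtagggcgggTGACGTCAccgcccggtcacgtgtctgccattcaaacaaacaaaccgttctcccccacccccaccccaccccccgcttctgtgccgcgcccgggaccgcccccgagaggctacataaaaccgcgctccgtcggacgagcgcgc

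The core TGACG was added to the motifs sought after these windows had been read, so its counts only describe what was seen there. It occurred in 6 of 7 member windows, Fos, Fosb, Junb, Atf3, Nr4a1 and Dusp1, and in 17.8% of 32851 windows of the same length. Nr4a1 held 4 of these cores, the closest at -40 (counted from the first base of the transcript, with -1 just before it), and Fos held 2, at -129 and -66. The full CRE was in 1 window, that of Dusp1 at -143, against 1.55% of all windows, and overlaps 2 of the cores. The Dusp1 window also held the E-box CACGTG at -126 (6.02% of all windows). The letters GCGNGGGCG, an EGR site, were in Fosb at -50 and Nr4a1 at -60 (4.70%), and TATAAA was in Fos at -33 (12.4%). Neither TGANTCA, an AP-1 site (6.75%), nor a CArG box, the binding site of serum response factor (1.47%), was found in these 7 windows on either strand. Sites with other letters, or farther than 250 bases from the start, were not sought, so these promoters may hold such sites. A match is a description of the letters and not evidence of binding.

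Per length, Dusp1, Jun and Ier2 were the most abundant members and Fosb the least. Dusp1 averaged 71.9 TPM over the 56 libraries, with a range of 42.6 to 129 TPM, Jun 58.7 TPM (35.4 to 98.2 TPM) and Ier2 39.6 TPM (25.1 to 67.8 TPM). Junb averaged 23.7 TPM (15.3 to 50.8 TPM), Egr1 13.7 TPM (5.18 to 38.7 TPM), Nr4a1 12.3 TPM (3.78 to 45.5 TPM), Atf3 7.12 TPM (2.80 to 13.5 TPM) and Fos 4.35 TPM (1.20 to 16.3 TPM). Ranges of neighbouring genes overlap in this order. Fosb averaged 0.388 TPM, from 10 to 91 reads a library, and fell below the mean of 1 TPM required for testing, so 8 of the 9 members were tested. Its values come from the same models fitted without that filter. Egr1 is on the plus strand at chr18:34859823-34864984. The level of Dusp1 rests on an exon length of 2697 bases that was inferred from the values, against 3311 bases in the annotation used here.

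**Figure D1:**
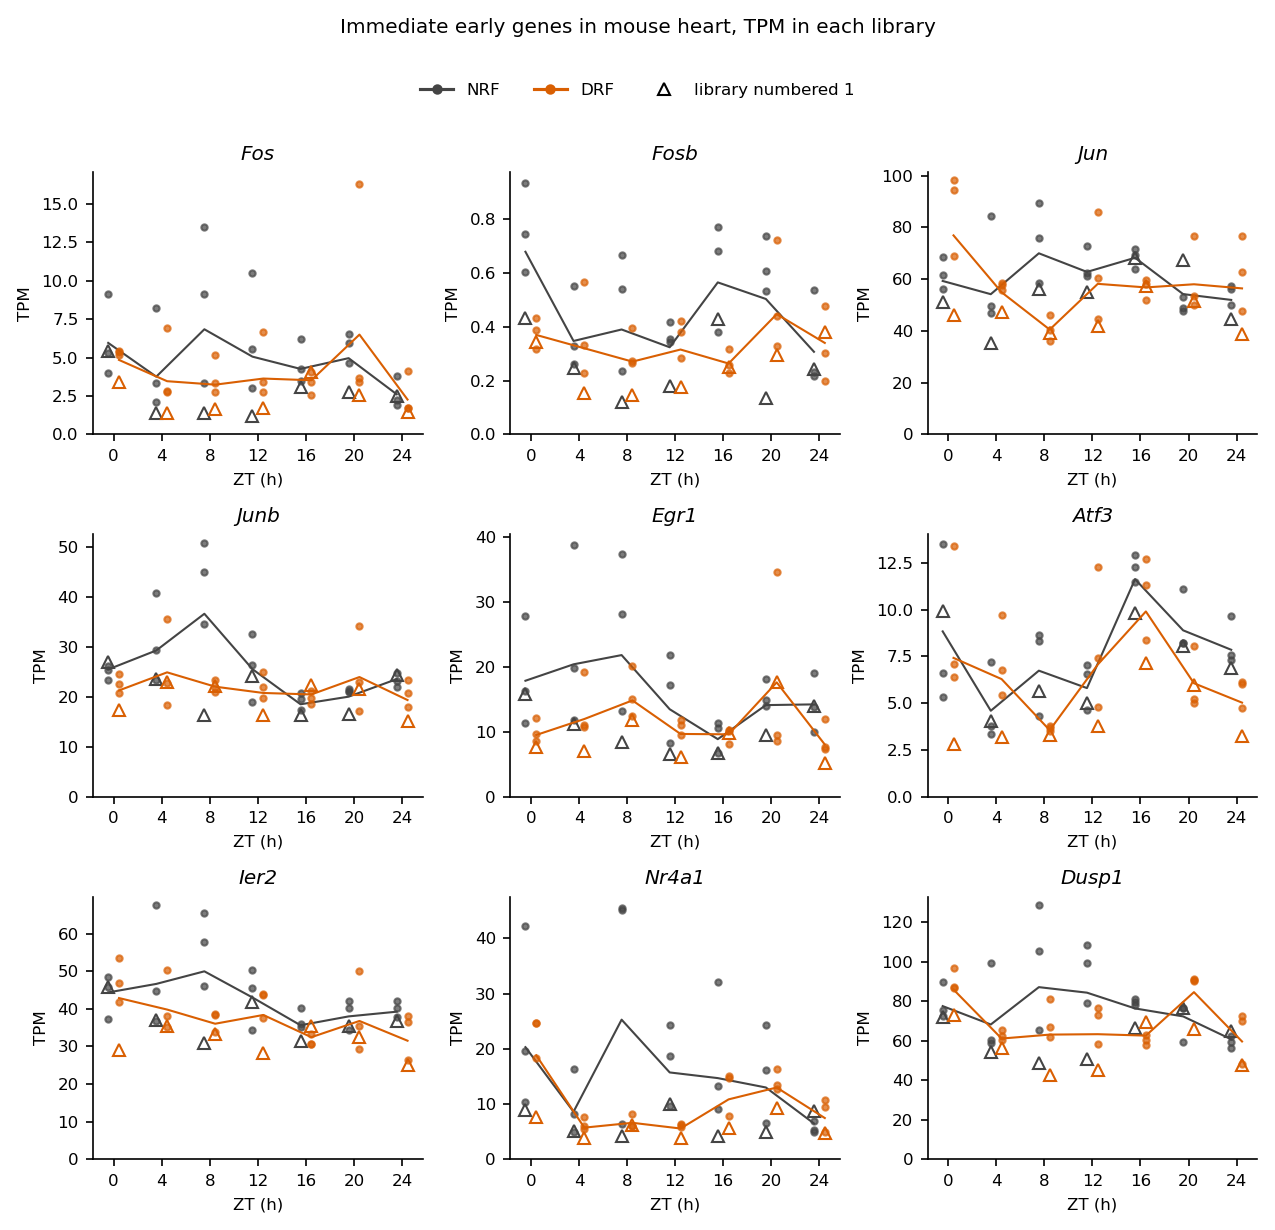
TPM of the 9 members (y axes, starting at 0) against ZT in hours (x axes) in each of 56 libraries. Lines join the group means, dots are libraries, and triangles are the libraries numbered 1. The dots of a group often spread as widely as the group means of a whole day, and many triangles lie at the foot of their group.

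Group means differed between ZTs and regimens, but for most members even the highest and the lowest group overlapped. The highest group mean was in NRF ZT8 for 6 of the 9 members, Fos, Junb, Egr1, Ier2, Nr4a1 and Dusp1. How many of all genes had their highest mean there was not counted, and 69.5% had lower estimates under DRF than NRF at ZT8. The members also varied together within groups, so these 6 are not separate observations. For Fos the highest group mean, in NRF ZT8, was 6.84 ± 5.50 TPM (SD, n = 4). This was 3.01 times its lowest, 2.27 ± 1.24 TPM in DRF ZT24. For Nr4a1 the group means ran from 5.54 ± 1.20 TPM in DRF ZT12 to 25.3 ± 23.1 TPM in NRF ZT8, a ratio of 4.56. When the 14 group means of a gene were put in order, the values of neighbouring groups overlapped in 13 of 13 steps for each of the 9 members. Neighbours in this order have the closest means, so the ordering itself makes their overlap likely. Each gene's own highest and lowest group did not overlap for 1 of the 8 tested members, beside 74.9% of all tested genes. This member was Atf3, with 3.56 ± 0.193 TPM in DRF ZT8 against 11.6 ± 1.34 TPM in NRF ZT16 (SD, n = 4 each). Fosb, outside that count, had 0.263 ± 0.0379 TPM in DRF ZT16 against 0.677 ± 0.212 TPM in NRF ZT0 (SD, n = 4 each).

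Under NRF, Junb and Atf3 varied over the day and the other members did not pass the test. A curve with a period of 24 h was fitted to the 28 libraries of a regimen, and 2 of 8 members were called rhythmic at an adjusted p under 0.05, against 37.2% of the 13893 genes tested. Junb was high in the light phase. Its values in the 4 NRF libraries were 16.3, 34.6, 44.9 and 50.8 TPM at ZT8, and 16.4, 20.7, 19.6 and 17.3 TPM at ZT16. Replicates 2 to 4 of ZT8 thus lie above all ZT16 libraries, and replicate 1 just below them. The amplitude of Junb, the distance from mid-level to peak on the log2(TPM + 1) scale, was 0.39 ± 0.09 (SE), with a fitted peak at ZT 6.26 ± 0.756 h (adjusted p = 0.00324). This call was lost without the libraries numbered 4 (adjusted p = 0.0621). Atf3 ran the other way, highest in the night. Its NRF libraries held 9.83, 12.9, 12.3 and 11.5 TPM at ZT16 and 4.07, 3.36, 3.76 and 7.18 TPM at ZT4, without overlap. Its amplitude was 0.46 ± 0.10, with a peak at 18.3 ± 0.745 h (adjusted p = 0.00281), and its call was lost without ZT16 (adjusted p = 0.0513).

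Egr1 and Ier2 did not pass the test of rhythm under NRF. Egr1 had an amplitude of 0.44 ± 0.16 and a fitted peak at 4.37 ± 1.25 h (adjusted p = 0.0706), and Ier2 an amplitude of 0.20 ± 0.07 and a peak at 6.17 ± 1.19 h (adjusted p = 0.0711). Without NRF ZT8 replicate 1 both passed, Egr1 with 0.50 (adjusted p = 0.0327) and Ier2 with 0.25 (adjusted p = 0.00859), and 4 members were then called under NRF beside 42.8% of all genes. Fos, Nr4a1, Dusp1 and Jun had amplitudes of 0.10 ± 0.18, 0.28 ± 0.24, 0.14 ± 0.08 and 0.17 ± 0.06 (adjusted p = 0.887, 0.603, 0.376 and 0.108). An F test of any difference among the 7 ZTs, which assumes no shape, also called Junb (adjusted p = 0.0165) and Atf3 (adjusted p = 0.0152) under NRF, 2 of 8 members against 31.6% of all genes. The call for Junb in this test was lost without NRF ZT8 replicate 3 or replicate 4 (adjusted p up to 0.0625). It was also lost without ZT16 and without the libraries numbered 2, 3 or 4 (adjusted p up to 0.194). That for Atf3 was lost without ZT4, without ZT16 and without the libraries numbered 2 or 3 (adjusted p up to 0.171). Fosb had an adjusted p of 0.0901 in the same F test.

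Under DRF, Nr4a1 was the member called rhythmic, 1 of 8 against 32.2% of all genes. Its amplitude was 0.58 ± 0.15 with a fitted peak at 20.4 ± 0.958 h (adjusted p = 0.013). The call held without any single library and was lost without ZT12, without ZT20 and without the libraries numbered 2, 3 or 4 (adjusted p up to 0.0698). The DRF libraries of Nr4a1 held 7.57, 24.7, 18.3 and 24.7 TPM at ZT0, 3.81, 7.54, 5.41 and 6.04 TPM at ZT4, 3.78, 6.40, 5.78 and 6.21 TPM at ZT12, and 9.35, 13.4, 12.8 and 16.4 TPM at ZT20. The 4 libraries of ZT20 lay above all libraries of ZT4 and ZT12. At ZT24, the same phase as ZT0 on the next day, Nr4a1 stood at 4.81, 9.35, 4.85 and 10.7 TPM. Atf3 again peaked in the night, at 17.4 ± 1.31 h with an amplitude of 0.36 ± 0.14, but did not pass (adjusted p = 0.114). Without DRF ZT4 replicate 2 it did (adjusted p = 0.0397). In the F test over ZT, Atf3 was called under DRF (adjusted p = 0.0261), 1 of 8 members against 35.8% of all genes, and Jun stood at the edge (adjusted p = 0.0501). Without NRF ZT8 replicate 1 Jun was called too (adjusted p = 0.0476), 2 of 8 beside 37.8% of all genes. The Atf3 call was lost without DRF ZT8 replicate 1, DRF ZT16 replicate 2 or DRF ZT16 replicate 3 (adjusted p up to 0.0805). It was also lost without ZT8, without ZT16 and without the libraries numbered 2 or 3 (adjusted p up to 0.266). In DRF the 4 libraries of Atf3 were tight at ZT8, with 3.32, 3.49, 3.76 and 3.66 TPM, and wide at ZT0, with 2.80, 13.4, 7.09 and 6.39 TPM. Junb, rhythmic under NRF, had an amplitude of 0.05 ± 0.07 under DRF (adjusted p = 0.859).

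The rhythm itself was compared between regimens by an interaction test in all 56 libraries. Jun was called, 1 of 8 members against 27.5% of all genes (adjusted p = 0.0438), and the difference between its fitted curves was 0.35 in amplitude units. Under DRF its fitted peak was at 20.97 ± 1.59 h with an amplitude of 0.22 ± 0.09, and under NRF at 12.3 ± 1.68 h with an amplitude of 0.17 ± 0.06, neither of which passed the test of rhythm within its regimen. In DRF the values of Jun were 46.1, 98.2, 94.3 and 69.0 TPM at ZT0 and 39.3, 40.5, 36.0 and 46.2 TPM at ZT8. Only replicate 1 of ZT0 fell within the range of the ZT8 libraries. In NRF they were 51.0, 56.0, 68.7 and 61.4 TPM at ZT0 and 56.3, 58.3, 75.9 and 89.4 TPM at ZT8, and these overlap. The call for Jun was lost in 22 of 56 fits that left out a single library, with adjusted p from 0.00883 to 0.0753. Junb just missed (difference 0.34, adjusted p = 0.06) and was called without DRF ZT4 replicate 2 (adjusted p = 0.0193), beside 27.8% of all genes. Without NRF ZT8 replicate 1, Jun, Junb, Nr4a1 and Dusp1 were called (adjusted p = 0.0375, 0.00545, 0.0499 and 0.0497), 4 of 8 beside 30.7% of all genes.

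Averaged over the 7 ZTs, all 8 tested members had lower estimates under DRF than under NRF, and Egr1 and Ier2 passed the test. Of all tested genes 74.95% had lower estimates too. These 2 calls of 8 stand against 28.9% of all genes. Egr1 averaged 11.6 ± 5.76 TPM (SD, n = 28) with daytime feeding and 15.8 ± 8.41 TPM (SD, n = 28) with nighttime feeding, a difference of -0.37 ± 0.14 on the log2(TPM + 1) scale (adjusted p = 0.0434). Ier2 was at 36.8 ± 7.31 TPM and 42.4 ± 9.11 TPM, a difference of -0.20 ± 0.07 (adjusted p = 0.028). The call for Egr1 was lost in 28 of 56 fits that left out a single library (adjusted p from 0.0164 to 0.0769), and that for Ier2 in 1, without NRF ZT4 replicate 4 (adjusted p = 0.0501). The Egr1 call was also lost without ZT0, ZT4, ZT12 or ZT24 and without the libraries numbered 2, 3 or 4. The Ier2 call was also lost without ZT8, ZT16 or ZT24, without the libraries numbered 1 or 3, and with the deposited or rescaled values (adjusted p up to 0.203). Junb (adjusted p = 0.00567) joined Egr1 and Ier2 without NRF ZT8 replicate 1, beside 31.5% of all genes. Without DRF ZT4 replicate 2 alone, Junb (0.0322) and Atf3 (0.0327, adjusted p) joined them, 4 of 8 beside 30.1% of all genes. Without DRF ZT4 replicate 2 and DRF ZT20 replicate 2 together the same 4 members passed, Ier2 (0.0075), Egr1 (0.0092), Junb (0.0144) and Atf3 (0.0455, adjusted p), beside 28.1% of all genes. Both ranges overlap widely, Egr1 running from 5.18 to 34.5 TPM under DRF and from 6.61 to 38.7 TPM under NRF. Atf3 (-0.26 ± 0.11, adjusted p = 0.0609) and Junb (-0.18 ± 0.08, adjusted p = 0.0689) came close, and Nr4a1, Fos, Dusp1 and Jun did not pass, with differences of -0.38, -0.21, -0.12 and -0.09. Fosb averaged 0.332 TPM in DRF libraries and 0.444 TPM in NRF libraries (adjusted p = 0.0847 in the fit of all listed genes). The median over the 8 members was -0.20, and over all tested genes -0.05. Of the 4020 genes called, 90.1% were lower under DRF. After rescaling by the median of ratios, the median over all genes was 0.00, 2857 genes were called with 53.1% of them lower, and neither Egr1 nor Ier2 was called. Summed macrophage markers had a median of 262 TPM under DRF and 329 TPM under NRF and endothelial markers 521 and 586 TPM, and 4 of 5 genes in each list were called lower. Mural markers had medians of 694 and 777 TPM with 4 of 5 genes called, fibroblast markers 574 and 613 TPM with 2 called and cardiomyocyte markers 21361 and 22795 TPM with 2 called. Atrial markers lay the other way, at 1806 and 610 TPM with 1 called. The share of mitochondrial transcripts was 21.8 ± 1.47% in DRF libraries and 20.5 ± 1.57% in NRF libraries (SD). Their part in the members' result was not tested.

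No member was called at any single ZT in the main comparison of 4 DRF with 4 NRF libraries. Few genes of any kind were called at ZT4 (0.446%) and ZT8 (0.353%). The share was 6.87% for ZT16, 7.62% for ZT12 and 8.80% for ZT24, and it was highest for ZT0 (11.5%) and ZT20 (14.9%). By the median of the members the gap was widest at ZT8, where all 8 estimates were lower under DRF, as were those of 69.5% of all genes, with a median of -0.61 against -0.06, and 5 members had an unadjusted p under 0.05, as had 14.6% of all genes. Jun came closest, with the ZT8 values given above and a difference of -0.75 ± 0.21 (adjusted p = 0.0773). Atf3 held 3.32 to 3.76 TPM in the DRF libraries and 5.67, 4.32, 8.31 and 8.65 TPM in the NRF libraries, a difference of -0.72 ± 0.29 (adjusted p = 0.237). For Jun and Atf3 all 4 DRF libraries were below all 4 NRF libraries at ZT8, 2 of 8 members, as for 5.96% of all genes.

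Nr4a1 showed how uneven NRF ZT8 was. Its NRF libraries held 4.18, 6.29, 45.5 and 45.1 TPM at ZT8 and its DRF libraries 6.16, 6.06, 5.93 and 8.16 TPM. A pair of NRF libraries was thus at the DRF level or below it and the other pair far above, and the difference of -1.16 ± 0.53 had an adjusted p of 0.305. Fos was similar, with 1.40, 3.36, 13.5 and 9.11 TPM in NRF and 1.68, 5.17, 3.34 and 2.77 TPM in DRF. Without NRF ZT8 replicate 1, Junb (-0.93 ± 0.18, adjusted p = 0.00668), Jun (-0.85 ± 0.22, adjusted p = 0.0275) and Ier2 (-0.62 ± 0.18, adjusted p = 0.0471) were called at ZT8, 3 of 8 beside 2.92% of all genes. At ZT20 none of the members passed, 6 of 8 estimates were higher under DRF and their median was 0.11, while 65.6% of all genes had lower estimates and the median over all genes was -0.07.

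**Figure D2:**
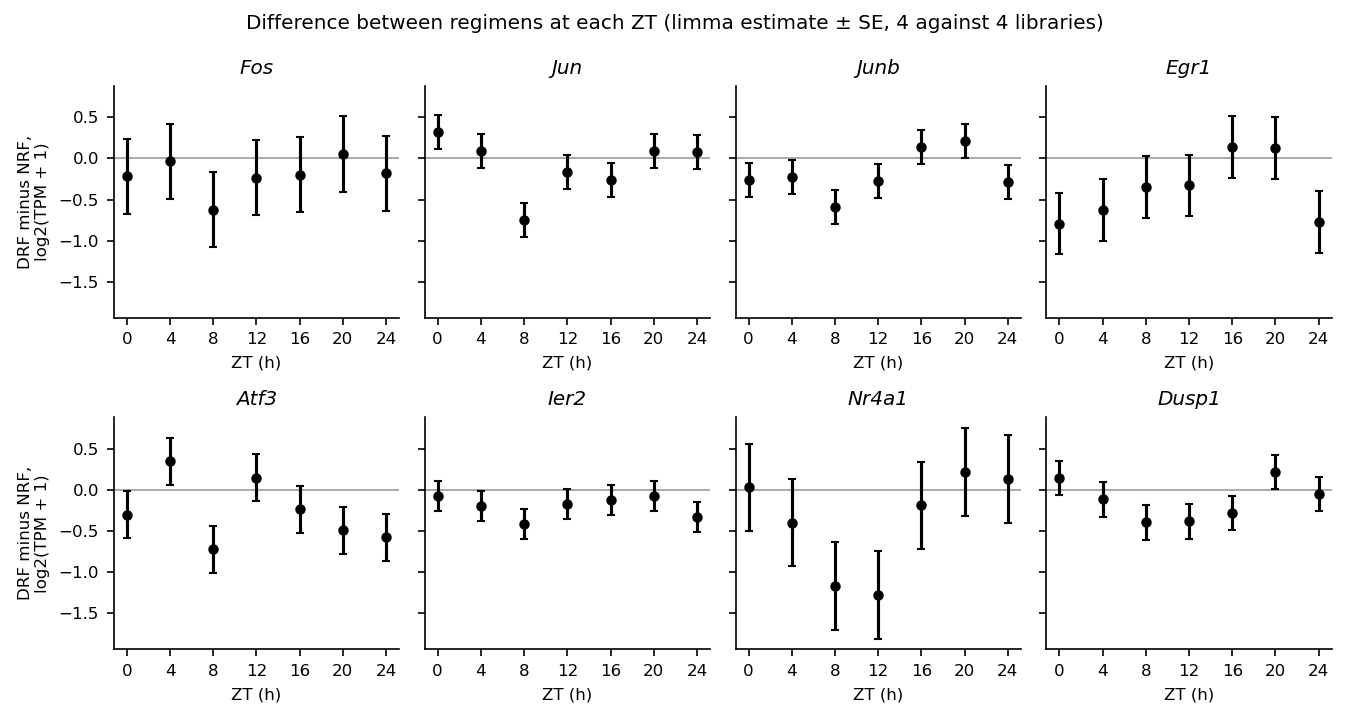
Difference between regimens (y axis, DRF minus NRF, log2(TPM + 1)) at each ZT in hours (x axis) for the 8 tested members, as the limma estimate ± SE of 4 against 4 libraries. At ZT8 all 8 points lie below 0, from -0.35 for Egr1 to -1.16 for Nr4a1, and no point passed the test after adjustment.

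ZT0 and ZT24 are the same phase on consecutive days, so their comparison measures how well a level returned. No member was called, against 0.425% of all genes under DRF and 0.0576% under NRF. The estimates of all 8 members were nevertheless lower at ZT24 in both regimens, where 56.1% of all genes were lower under DRF and 74.9% under NRF. At an unadjusted p under 0.05, 4 members differed under DRF and 2 under NRF, beside 12.2% and 9.11% of all genes. Nr4a1 stood at 18.8 ± 8.07 TPM in ZT0 and 7.44 ± 3.07 TPM in ZT24 libraries of DRF, and at 20.3 ± 15.4 and 6.45 ± 1.74 TPM in those of NRF, which are differences of -1.18 ± 0.53 and -1.28 ± 0.53 (adjusted p = 0.346 and 0.499). Fos stood at 4.84 ± 0.941 and 2.27 ± 1.24 TPM in DRF and at 5.95 ± 2.21 and 2.61 ± 0.834 TPM in NRF (SD, n = 4 each). Fosb under NRF stood at 0.432 to 0.932 TPM at ZT0 and at 0.243, 0.216, 0.535 and 0.232 TPM at ZT24 (adjusted p = 0.517).

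Libraries of a single group differed more in these genes than in most others. The SD within groups on the log2(TPM + 1) scale was 0.78 for Nr4a1, 0.67 for Fos, 0.55 for Egr1 and 0.42 for Atf3, against a median of 0.14 over all tested genes. These 4 values exceed those of 99.0%, 98.2%, 97.3% and 95.7% of the tested genes. Dusp1 (0.31), Junb (0.30), Jun (0.30) and Ier2 (0.27) were above 88.0% of the genes or more. The SD that counting alone would give on the same scale was smaller, at most 0.13 for Fos among the tested members, and for Fosb at most 0.07 beside an SD within groups of 0.17. Highest and lowest library differed by more than 2-fold in 12 of 14 groups for Fos, in 9 for Nr4a1 and in 7 for Egr1, but in 1 group for Junb and for Ier2. The widest group was NRF ZT8 for 7 of the 9 members, where the highest library stood 10.9 times above the lowest for Nr4a1, 9.61 times for Fos, 4.40 times for Egr1 and 3.12 times for Junb. Replicate 1 was the lowest library in each of these, and without it the ratios were 7.23, 4.0, 2.82 and 1.47. How many of all tested genes were widest in NRF ZT8 was not counted.

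The spread did not pass a test between regimens for any member. Distances of the libraries from their group median were compared over the 7 ZTs, and 0 of 8 members and 0% of all genes were called by limma, with 471 genes at an unadjusted p under 0.05. Nr4a1 was the member among these 471, with an SD within groups of 0.48 under DRF and 1.00 under NRF, 2.10 times larger (difference in distance -0.42 ± 0.13, unadjusted p = 0.00158, adjusted p = 0.999). Including Fosb, 7 of the 9 members had a larger SD under NRF, as had 54.7% of all tested genes. Atf3 and Jun had the larger SD under DRF, 0.49 against 0.33 and 0.33 against 0.27.

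The libraries numbered 1 held low values of these genes across both regimens. This was noticed in the data, and the test of it was added afterwards. In 81 of 126 sets of 4 libraries (9 members in 14 groups) replicate 1 was the lowest, 64.3%, where over all tested genes the share was 27.0%, and in 8 sets it was the highest. For all 9 members the lowest of the 56 libraries was numbered 1. Against the mean of replicates 2 to 4, in a model with the 14 group means, all 8 tested members were lower in replicate 1, as were 56.6% of all genes, and 6 were called, against 2.55% of all genes. The median over the members was -0.36 and over all genes -0.01. Nr4a1 had the largest difference, -0.87 ± 0.18 (adjusted p = 0.00607). Its libraries numbered 1 held 3.78, 5.29 and 10.1 TPM (lowest, median and highest of 14), and the others 4.85, 10.1 and 45.5 TPM (of 42), so the ranges overlap although the medians are apart. Fos followed with -0.73 ± 0.17 (adjusted p = 0.0112), its libraries numbered 1 holding 1.20, 2.10 and 5.44 TPM and the others 1.74, 4.01 and 16.3 TPM. Dusp1 (-0.34 ± 0.08, adjusted p = 0.0131), Jun (-0.29 ± 0.08, adjusted p = 0.0391), Ier2 (-0.26 ± 0.07, adjusted p = 0.0401) and Atf3 (-0.38 ± 0.11, adjusted p = 0.0464) were also called. Egr1 (-0.51 ± 0.15, adjusted p = 0.0516) and Junb (-0.24 ± 0.08, adjusted p = 0.113) were not. Fosb passed when all listed genes were fitted (-0.19 ± 0.04, adjusted p = 0.0185).

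**Figure D3:**
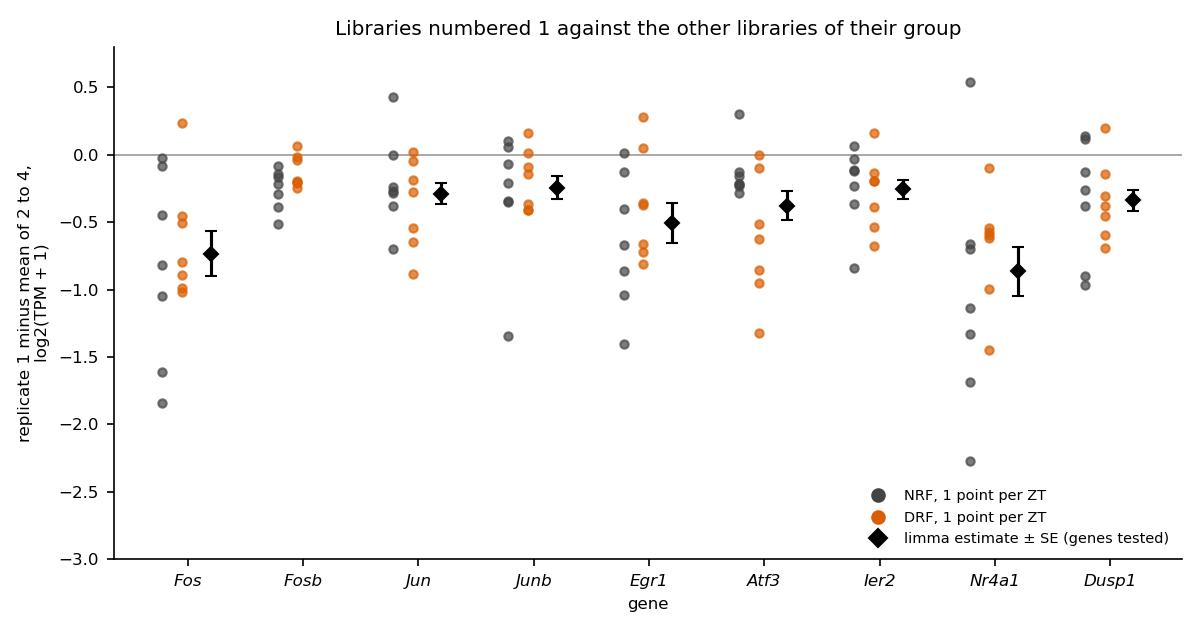
Replicate 1 minus the mean of replicates 2 to 4 of the same group (y axis, log2(TPM + 1)) for each member (x axis), with 7 points per regimen, one for each ZT, and the limma estimate ± SE for the 8 tested members. Most points lie below 0 in both regimens, 13 of 14 for Fos, Fosb and Nr4a1 and 10 of 14 for Junb.

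The low values of replicate 1 were present under both regimens. Fos was below the mean of its group's other libraries in 6 of 7 DRF groups and 7 of 7 NRF groups, and Nr4a1 in 7 and 6. The mean gap was -0.62 under DRF and -0.13 under NRF for Atf3, while for Egr1 it was -0.37 and -0.64. Whether the gap differs between regimens was not tested. The calls for Fos, Nr4a1 and Dusp1 held in 56 of 56 fits without a single library, with adjusted p up to 0.0423, 0.0252 and 0.0482. Those for Jun, Ier2 and Atf3 were lost in 9, 12 and 34 of the 56. Larger omissions also lost the first 3 calls. Fos was not called without ZT12 (adjusted p = 0.073), nor Nr4a1 without the libraries numbered 4 (adjusted p = 0.0611). Dusp1 was not called without ZT8, without ZT12 or without the libraries numbered 3 (adjusted p up to 0.113). Without NRF ZT8 replicate 1, 3 members remained called, Fos, Nr4a1 and Dusp1, beside 1.30% of all genes, and the same 3 were called without DRF ZT4 replicate 2 and DRF ZT20 replicate 2 together. Depth was 37.1 ± 5.72 M reads in the 14 libraries numbered 1 and 38.6 ± 4.98 M in the other 42, and mitochondrially encoded genes took 21.8 ± 1.72% and 20.9 ± 1.59% of the reads (SD). None of the 48 tested cell type markers was called, and in each of 10 lists the summed markers of the libraries numbered 1 overlapped those of the others. The members' own ranges overlapped too although most were called, so overlap of whole ranges does not measure a difference. Fibroblast, macrophage, atrial and mesothelial markers were lower in replicate 1 in 5 of 5 genes each, with medians of -0.12, -0.12, -0.56 and -0.60, beside -0.36 for the members. The part of these values, or of anything else a library number marks, was not tested.

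Within groups the members varied in the same direction, some pairs closely and others weakly. Deviations of each library from its group mean were correlated over the 56 libraries, which share within a group the same mean and differ in depth and tissue make-up, so the values are descriptive. All 28 pairs of tested members had a positive Pearson r, from 0.27 to 0.90 with a median of 0.56 (Spearman rho from 0.30 to 0.90). Over all 96500778 pairs of tested genes the median r was 0.18, 77.1% were positive, 35.9% reached the lowest member pair and 5.41% the median member pair. Junb with Ier2 (r = 0.90, rho = 0.90) and Fos with Egr1 (r = 0.90, rho = 0.87) were the closest pairs, and remained at 0.89 and 0.88 without the 2 libraries farthest from the median. Fos, Junb, Egr1 and Ier2 had r of at least 0.77 with each other. Atf3 stood apart from these, with r = 0.27 to Egr1 and 0.32 to Fos, and went most closely with Jun (r = 0.68). That pair was at 0.81 under DRF and 0.45 under NRF, where Atf3 went most closely with Nr4a1 (0.64). Dusp1 and Fos were closer under NRF (r = 0.85) than under DRF (r = 0.43), a difference that was not tested.

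**Figure D4:**
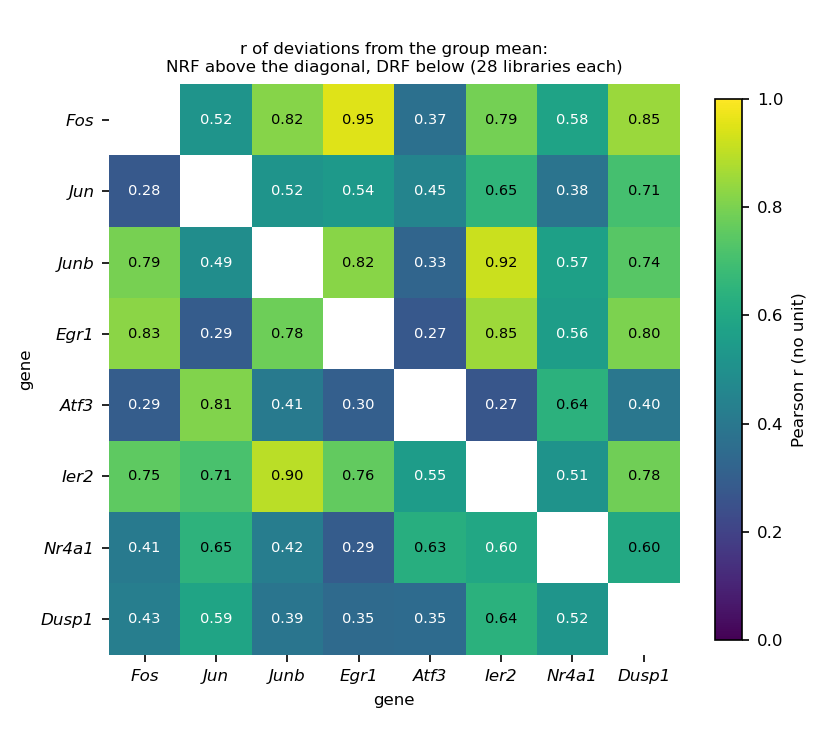
Pearson r of deviations from the group mean for each pair of the 8 tested members (both axes), NRF above the diagonal and DRF below it, 28 libraries each, with the colour scale from 0 to 1. Fos, Junb, Egr1 and Ier2 form a block of high values in both regimens, and Atf3 pairs best with Jun under DRF (0.81) and with Nr4a1 under NRF (0.64).

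An index of the members, the mean of their deviations each in units of its own SD, ordered the libraries. All 14 libraries numbered 1 were below 0, as were 16 of the other 42. The lowest was NRF ZT8 replicate 1, at -2.24, followed by DRF ZT0 replicate 1 (-1.53) and DRF ZT12 replicate 1 (-1.35), and in each of these all 8 members were below their group mean. The highest were NRF ZT4 replicate 4 (2.07), NRF ZT8 replicate 4 (1.68) and NRF ZT8 replicate 3 (1.46), with all 8 members above it. Thus NRF ZT8, the group with the highest means of 6 members, held both the lowest library and a pair of the highest. DRF ZT4 replicate 2 (1.22) and DRF ZT20 replicate 2 (1.07), which correlated least with their groups, were also high, and the latter held the most Fos of all libraries, 16.3 TPM against 2.58 to 3.66 TPM in the rest of its group.

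**Figure D5:**
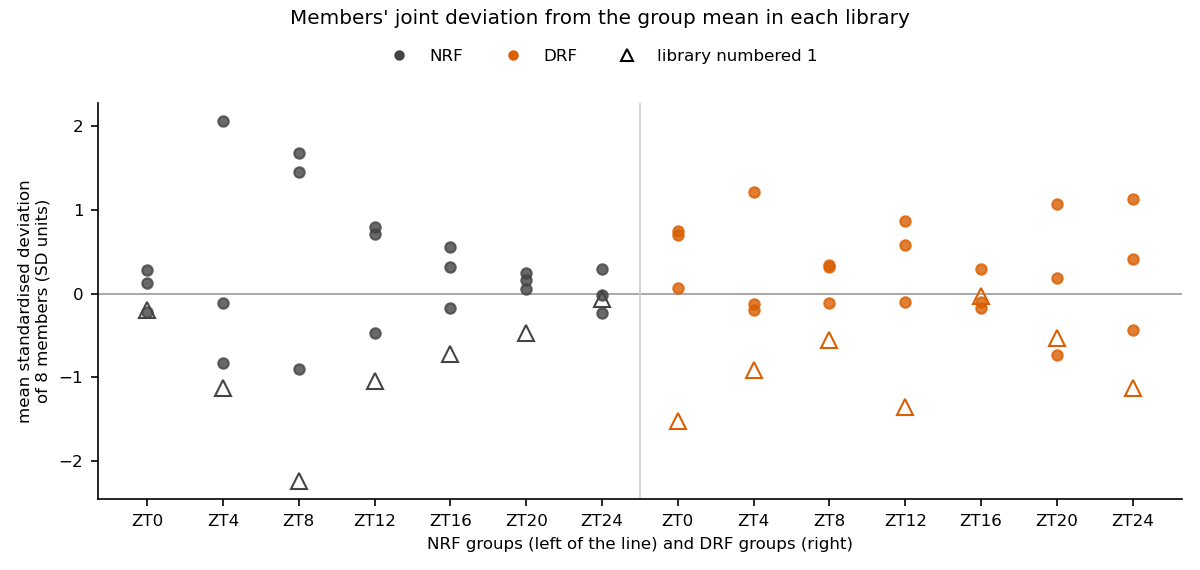
Index of the 8 tested members (y axis, mean standardised deviation from the group mean, in SD units) in each library of the 14 groups (x axis), with triangles for libraries numbered 1. The 14 triangles are all below 0, the lowest at -2.24 in NRF ZT8.

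The genes whose deviations were most like this index were Btg2, an antiproliferative early response gene (r = 0.88, rho = 0.82, 56 libraries), Cemip2 (0.79), Adamts1, a secreted metalloproteinase (0.78), Egr3, a relative of Egr1 (0.77), Slc25a24 (0.77), Epha2 (0.76), Otud1 (0.76), Coro1c (0.76), Irf2bpl (0.76) and F2r, a thrombin receptor (0.76). The index was low in the libraries numbered 1, so levels of these genes there are no separate evidence. By the 14 group means the most similar genes were others, Hlx (r = 0.84), Nuak2 (0.84), Glmp (0.83), Ints9 (0.82) and Cwc25 (0.82). The summed markers of macrophages (r = 0.67), fibroblasts (0.57) and endothelial cells (0.51) varied with the index, those of cardiomyocytes (0.05), red cells (0.04), neutrophils (0.05) and adipocytes (0.00499) hardly at all, and mural (0.20), mesothelial (0.22) and atrial markers (0.33) lay between. Most of these markers were found in all libraries, but Ly6g was at 0 in 36 libraries, Bmp10 in 12, and Adrb3 and Sln in 1 each. Their part in the members' variation was not tested.

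Related genes from 7 fixed lists, 73 tested, gave the wider setting. Under NRF 32 of the 73 were rhythmic and under DRF 22, and 25 differed in rhythm between regimens, beside 37.2%, 32.2% and 27.5% of all genes. In the F test over ZT, 30 were called under NRF and 33 under DRF, beside 31.6% and 35.8% of all genes. The mean level of 22 was lower and of 4 higher under DRF, where 28.9% of all genes were called and 90.1% of those were lower. In the libraries numbered 1, 5 of the 73 were called, all lower, beside 2.55% of all genes, namely Egr3 (-0.32, adjusted p = 0.00463), the Krüppel-like factors Klf2 (-0.38, adjusted p = 0.00943) and Klf6 (-0.20, adjusted p = 0.0391), the AP-1 subunit Fosl2 (-0.24, adjusted p = 0.018) and the kinase Sik1 (-0.45, adjusted p = 0.0228).

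The counts of rhythmic genes in each list stand beside 37.2% of all genes under NRF and 32.2% under DRF, and differences between such counts were not tested. Of 10 AP-1 partners 3 were rhythmic under NRF and 5 under DRF, with Fosl1, an AP-1 subunit, called in both at peaks of 8.99 h and 7.04 h (adjusted p = 0.00436 and 0.00668). Of 19 other early response factors 12 were rhythmic under NRF and 4 under DRF. Ier3 had an amplitude of 0.69 with a peak at 15.4 h under NRF (adjusted p = 3.25e-10) and 0.39 with a peak at 13.6 h under DRF (adjusted p = 0.0054). Cebpb had 0.88 at 12.7 h (adjusted p = 1.71e-05) and 0.42 at 16.6 h (adjusted p = 0.0426), and its rhythm differed between regimens (adjusted p = 0.00392), as did that of Csrnp1 (adjusted p = 0.00095).

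The other lists hold regulators and companions of these genes, to be read against the same 37.2% and 32.2%. Of 11 feedback genes of MAP kinase signalling 3 were rhythmic under NRF, Dusp16, Dusp8 and Dusp5, and 3 under DRF, Errfi1, Spry1 and Dusp4. The interaction test called 3 of the 11, Spry1, Dusp4 and Errfi1, beside 27.5% of all genes. Mean level was called in 8 of the 11, 7 of them lower under DRF, beside 28.9% of all genes. Of the calls over all genes 90.1% were lower, or 53.1% after rescaling. Of 10 genes around serum response factor, Srf itself was rhythmic under both regimens with peaks at 22.4 h under NRF and 6.85 h under DRF, and its rhythm differed (adjusted p = 2.31e-06). Of 8 genes of the CREB pathway, Per1, a clock gene that CREB induces, had an amplitude of 1.27 with a peak at 12.8 h under NRF (adjusted p = 2.84e-06) and differed between regimens (adjusted p = 0.00119). Of 9 genes of transcript decay and growth arrest, Zfp36, whose protein speeds the decay of early transcripts, peaked at 9.00 h under NRF (adjusted p = 0.00274), and Cdkn1a was rhythmic under both. Of 6 early heat shock genes 5 were rhythmic under NRF, led by Hsph1 (peak at 20.4 h, adjusted p = 1.45e-06), and 0 under DRF. The interaction test called 2 of the 6, Hsph1 and Hspb1, beside 27.5% of all genes. Under DRF the F test over ZT called 3, Dnajb1, Hspa1b and Hspa1a, beside 35.8% of all genes.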

How the data were processed

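From mouse heart, 56 polyA libraries were sequenced by the authors, aligned and counted with HISAT2 2.0.5 and featureCounts 1.5.0-p3 on mm10 according to the submitters' processing notes, and deposited as values named TPM. The deposited values are not linear TPM: each equals a constant of the library times log2(1 + scaled reads) divided by exon length, so the unit is other than its name. The design had assumed linear TPM. Whole reads were therefore recovered with exon-union lengths from GENCODE M21 (GRCm38); of 1192378 values below 30000 reads, 99.9996% came within 0.1 of a whole read. Lengths were searched for 846 genes, 796 of them on chromosomes 17 to 19, and no length could be found for 5, which were left out (Atp5a1, Fth1, Hsp90ab1, Myom1, Rps2). Columns of no sample numbered 0. Linear TPM was recomputed. Identical library pairs numbered 0. The recovery and the models were tested on simulated data.

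The 13893 genes averaging 1 TPM or more were tested with limma 3.58.1 in R 4.3.3 on log2(TPM + 1), which understates changes of low genes, using eBayes with a trend. Benjamini-Hochberg adjustment ran over all of them, with calls at 0.05. Rhythms were F tests of a 24 h harmonic pair, in place of the study's rhythm tool. Group means over ZT, regimens at each ZT, the regimen mean, ZT24 against ZT0 and absolute distances from the group median were tested in a model of 14 groups. The members and lists were chosen with earlier results of these data known. The text names all 9 members, up to 4 called genes per list and comparison by adjusted p, the 10 genes most like the members by deviations and the 5 by group means. Tables and figures used Python 3.11.15, pandas 2.3.3, SciPy 1.17.1 and Matplotlib 3.10.9. Promoter windows are from RefSeq. Alternatives covered pseudocount, filter, scaling, the deposited values, limma-voom on the recovered reads, a replicate block, a threshold of 0.01 and leaving out libraries, replicate numbers or ZTs.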

Additional observations from a re-analysis of the deposited data

Results flagged for a closer look

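Of 126 groups of 4 values (9 members in 14 groups), 11 held a library whose gap to its nearest neighbour took more of the group's range than Dixon's test allows at the 95% level. About 1 in 20 groups would be singled out this way by chance, or 6.3 of 126. In 7 the library was high and in 4 low. Fos was low in DRF ZT0 replicate 1 (3.44 TPM, the others at 5.18 to 5.40 TPM) and high in DRF ZT20 replicate 2 (16.3 TPM, the others at 2.58 to 3.66 TPM) and DRF ZT24 replicate 4 (4.13 TPM). Fosb was high in NRF ZT24 replicate 3 (0.535 TPM, the others at 0.216 to 0.243 TPM). Jun was high in DRF ZT20 replicate 4 (76.8 TPM), Atf3 in NRF ZT20 replicate 4 (11.1 TPM) and Nr4a1 in DRF ZT8 replicate 4 (8.16 TPM). Junb was low in NRF ZT20 replicate 1 (16.5 TPM, the others up to 21.5 TPM). Dusp1 was low in DRF ZT20 replicate 1 (66.0 TPM, the others at 90.5 to 91.3 TPM) and in NRF ZT20 replicate 4 (59.5 TPM), and high in NRF ZT4 replicate 4 (99.4 TPM). The rhythm of Jun differed between DRF and NRF by the interaction test (adjusted p = 0.0438).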

How the results depend on the processing

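Numbers of members called, out of 8, are given here for each alternative that moved them by more than 1.5 times. With a pseudocount of 0.1 TPM, 2 varied over ZT under DRF (36.1% of all genes). Without the filter, 0 differed in rhythm and 1 in mean level, beside 16.3% and 16.6% of all genes, and 3 of the 8 (Fos, Nr4a1 and Dusp1) and Fosb were called for replicate 1 (1.03%). Both median-of-ratios scaling and the deposited values gave 2 with a different rhythm, 3 varying over ZT under DRF and 0 with a different mean, beside 33.1%, 44.8% and 20.6% of all genes with the former and 29.0%, 40% and 19.7% with the latter. With limma-voom these were 2, 2 and 1 (31.7%, 43.1% and 26.0%), and 1 call (Jun at ZT8, beside 1.79% of all genes) arose at a single ZT. Shares of all genes are in brackets from here on. At a threshold of 0.01, 0 members were rhythmic under DRF (17.5%), differed in rhythm (15.9%), varied over ZT under NRF (19.5%) or DRF (19.6%) or differed in mean (15.5%), and 1 remained in the comparison of libraries numbered 1 (0.497%). Without ZT0, 0 differed in rhythm (24.5%) and 1 in mean (19.2%). Without ZT4, 2 were rhythmic under DRF (30.8%), 2 differed in rhythm (25.1%), 1 varied over ZT under NRF (33.5%), 2 did so under DRF (36.9%), 1 call arose at a single ZT (ZT8, 0.878%), and 3 were called for replicate 1 (1.93%). Without ZT8 the counts were 0 for rhythm difference (29.9%), 2 for variation under DRF (34.9%), 1 for mean (26.7%) and 2 for replicate 1 (1.53%). Without ZT12 they were 0 for DRF rhythm (29.4%), 2 for variation under DRF (29.9%) and 1 for replicate 1 (0.605%). Without ZT16, 1 was rhythmic under NRF (26.1%), 1 differed in mean (19.6%), and 0 differed in rhythm (21.3%) or varied over ZT under NRF (23.7%) or DRF (23.5%). Without ZT20, 0 were rhythmic under DRF (24%), 0 differed in rhythm (21.5%) and 2 varied under DRF (27.3%). Without ZT24, 2 were rhythmic under DRF (26.6%), 0 differed in rhythm (19.8%), 2 varied under DRF (33.6%), 0 differed in mean (23.3%) and 3 were called for replicate 1 (0.669%). Without DRF ZT4 replicate 2 and DRF ZT20 replicate 2 together, chosen after seeing the data, 2 were rhythmic under DRF (28.8%), 2 differed in rhythm (27.1%), 4 in mean (28.1%) and 3 for replicate 1 (1.71%). The causes of these changes were not tested.

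When 1 library or 1 replicate number was left out, the counts ranged from 2 to 4 for NRF rhythm, 0 to 2 for DRF rhythm, 0 to 4 for the rhythm difference, 0 to 3 for variation over ZT under NRF and under DRF, 0 to 4 for the mean, 0 to 3 at single ZTs, 2 to 7 for replicate 1, and 0 to 0 for spread and for ZT24 against ZT0. Shares of all genes moved in such fits too, so these ranges are not particular to the members. The rhythm difference was called in 13.2% of all genes without replicate 3 and in 30.7% without NRF ZT8 replicate 1. DRF rhythm was called in 16.5% without replicate 1, beside 32.2% in the main fit. The mean difference of Jun, which was not called, changed sign without ZT8 (0.02437). The difference in spread, not called for any member, ranged over 0 in these fits, from -0.02928 to 0.06444 for Ier2, from -0.06056 to 0.0215 for Junb and from -0.06029 to 0.007414 for Dusp1, and was -0.02079 for Ier2 without the pair of DRF libraries.

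Over all tested genes, deviations of same-numbered libraries correlated with r from -0.178 to 0.114 in 28 pairs of groups, 1 of them over 0.1, so the numbers were not taken to pair the samples, although the members were low in the libraries numbered 1. With a replicate block, 3 members were rhythmic under NRF (Egr1 added, adjusted p = 0.0473), 1 under DRF, 3 differed in rhythm (Junb, 0.0397, and Nr4a1, 0.0484, added), 2 varied over ZT under NRF, 4 under DRF (Jun, 0.0179, Nr4a1, 0.0166, and Dusp1, 0.035, added) and 4 differed in mean (Junb, 0.0489, and Atf3, 0.0319, added). The shares of all genes were 36.4%, 32.0%, 27.2%, 31.9%, 36.4% and 29.0%. Fos and Fosb have few reads in some libraries, which limits their precision.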
